A study of Mus musculus with 4 samples.

Results

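The genes of glucose uptake, glycolysis, lactate handling and pyruvate entry into mitochondria were measured in RNA of iNKT (invariant natural killer T) cells of the mouse thymus. These T cells carry a nearly fixed T cell receptor and respond to lipids shown on CD1d. The 30 genes were given as a list and found by symbol, and all 30 were among the 53715 genes of the count table and among the 14185 that passed the filter on low counts. The cells were live, TCRβ-positive, CD1d tetramer-binding thymocytes, sorted into lysis reagent from animals labelled C57BL/6 and aged 6 to 8 weeks. One group was labelled WT (2 libraries) and the other Mettl3fl/flCD4-cre, here called the Mettl3 knockout (2 libraries). METTL3 is the methyltransferase that deposits m6A on mRNA. Cre under Cd4 control acts in all thymocytes that have passed through the CD4+CD8+ stage, not in iNKT cells alone. Whether the WT animals carried the floxed allele or Cre, and whether a library is 1 animal or a pool, is not given in the sources used here. The p-values therefore cover the spread among these 4 libraries alone, which may be technical.

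Glycolysis splits glucose into pyruvate in the cytosol. Pyruvate is then either reduced to lactate and exported, or carried into mitochondria, where the pyruvate dehydrogenase complex turns it into acetyl-CoA. T cells raise this pathway when they are activated and divide, largely under MYC and HIF-1α, and resting T cells rely more on mitochondrial oxidation. Several steps have isoenzymes from separate genes with different tissue distributions, so a cell's set of paralogs is part of its metabolic character.

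Total counts over genes ran from 24374587 to 28316016 per library, and levels are given as CPM (depth-normalised counts, with library sizes scaled by TMM), for replicate 1 and then replicate 2 of each genotype. Of all tested genes, 368 (2.59%) were called between the genotypes at an edgeR adjusted p under 0.05, 154 higher and 214 lower in the knockout (207 and 197 under total-count scaling). Leaving out WT replicate 1 or 2 left 172 or 83 calls, and leaving out knockout replicate 1 or 2 left 41 or 45. Mettl3 itself (ENSMUSG00000022160.18; GRCm38 chromosome 14, 52294841 to 52305128, minus strand) was at 92.2 and 124 CPM in WT and 78.1 and 91.4 CPM in the knockout, a knockout-over-WT log2 fold change of -0.35 (95% interval -0.79 to 0.09; edgeR adjusted p = 0.357), so its reads do not show the deletion. Reads from exons outside a deleted part still count toward that value. The 8 T cell and iNKT markers summed to 4024 to 4338 CPM in WT and 3657 to 3840.4 CPM in the knockout. Of these 3 had positive and 5 negative log2 fold changes, Cd5 was called higher and Trac lower, and Zbtb16, an iNKT regulator, averaged 224 CPM in WT against 352 CPM. The short receptor segments Trav11 and Traj18 stayed under 4 CPM in each library. Marker lists of iNKT subsets and of other cells differed between the genotypes. All marker lists were chosen with earlier results of these data known, so their counts are a description and not a test. The 14 markers of NKT1 cells summed to 5240.5 to 7022 CPM in WT and 2620.4 to 2668 CPM in the knockout, all 14 at lower levels and 13 of them called. Those of NKT2 cells, 9 in number, summed to 1769.9 to 2269.6 CPM in WT and 2766 to 2816 CPM in the knockout, with 7 at higher levels and 4 called higher. The 11 of NKT17 cells summed to 459 to 538 CPM in WT and 123 to 139.8 CPM in the knockout, with 10 at lower levels and 7 called lower. The 17 dendritic cell and macrophage markers summed to 218 to 339.9 CPM in WT and 2181 to 2328 CPM in the knockout, with 7 called higher and 1 called lower. Most of that sum in the knockout was Lyz2, Cd74, H2-Aa and H2-Ab1, at means of 355, 532, 551 and 624 CPM, whereas the means of WT and knockout were 65.7 and 77.2 CPM for Ctss and 7.76 and 7.05 CPM for C1qa. Of the 17, Itgam and Tyrobp were under 1 CPM in every library, and Itgam and Flt3 had no read in WT. The 10 markers of CD4+CD8+ thymocytes summed to 799.6 to 920.3 CPM in WT and 1229.9 to 1343 CPM in the knockout, with 0 called by edgeR, 5 at an unadjusted p under 0.05 and 5 by DESeq2. Of all tested genes, 20.2% had an unadjusted p under 0.05 and 9.4% were called by DESeq2. The 16 proliferation markers summed to 2287 to 2404 CPM in WT and 2764 to 2879.5 CPM in the knockout, with 11 at higher levels, 5 at an unadjusted p under 0.05 and 1 called higher. B cell markers, with 0 called by edgeR and 1 at an unadjusted p under 0.05, summed to at most 36.4 CPM in any library. In bulk RNA fewer cells of a type and less RNA per cell cannot be told apart, and the part these differences have in the values below was not tested.

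None of the 30 pathway genes passed the test between Mettl3 knockout and WT cells: edgeR called 0, beside 2.59% of all tested genes. Called higher were 0, beside 1.09%, and called lower 0, beside 1.51%, and the lowest adjusted p was 0.0875. Of the 25 members that averaged 10 CPM or more 0 were called as well, beside 3.84% of genes at that level. So small a list would hold few calls at that rate, and a count of 0 is near the background. At an unadjusted p under 0.05 there were 5, or 16.7%, beside 20.2% of all tested genes. Of these 4 were lower, beside 9.69%, and 1 was higher, beside 10.5%. In all 16 of the 30 had no overlap between the genotypes (53.3%), beside 50.3%, with 8 higher (25.4% of all tested genes) and 8 lower (24.9%). DESeq2 called 2 members, Aldoa and Slc16a1, beside 9.4% of all genes, and limma voom called 0. The median log2 fold change of the members was 0.02, that of all tested genes 0.02 as well, and 16 members were positive and 14 negative. The summed level of the members was 8393 and 8225 CPM in the WT libraries and 8421 and 8026 CPM in the knockout libraries, so the knockout values lay on both sides of the WT values.

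The intervals show how large a change these libraries leave room for. For 14 members the 95% interval of the fold change lay within 1.5-fold either way, beside 17.7% of all tested genes, and for 23 within 2-fold, beside 43.3%. Interval width follows expression. Among genes that averaged 10 CPM or more 29.4% lay within 1.5-fold and 71.5% within 2-fold. Of the 25 members at that level 14 lay within 1.5-fold and 23 within 2-fold. No comparison with genes more closely matched in level was made. The 14 members were Slc2a1, Hk1, Gpi1, Pfkl, Pfkp, Tpi1, Gapdh, Pgk1, Eno1, Pkm, Ldha, Pdhb, Pdk1 and Hif1a, which cover each step from glucose uptake to lactate apart from aldolase and phosphoglycerate mutase. The 7 whose interval reached beyond 2-fold were Hk2, Pfkm, Aldoc, Eno2, Mpc1, Slc16a3 and Dlat. Of these, Slc16a3 and Dlat were at 30.3 CPM or more in every library and the rest below 14 CPM.

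**Figure D1:**
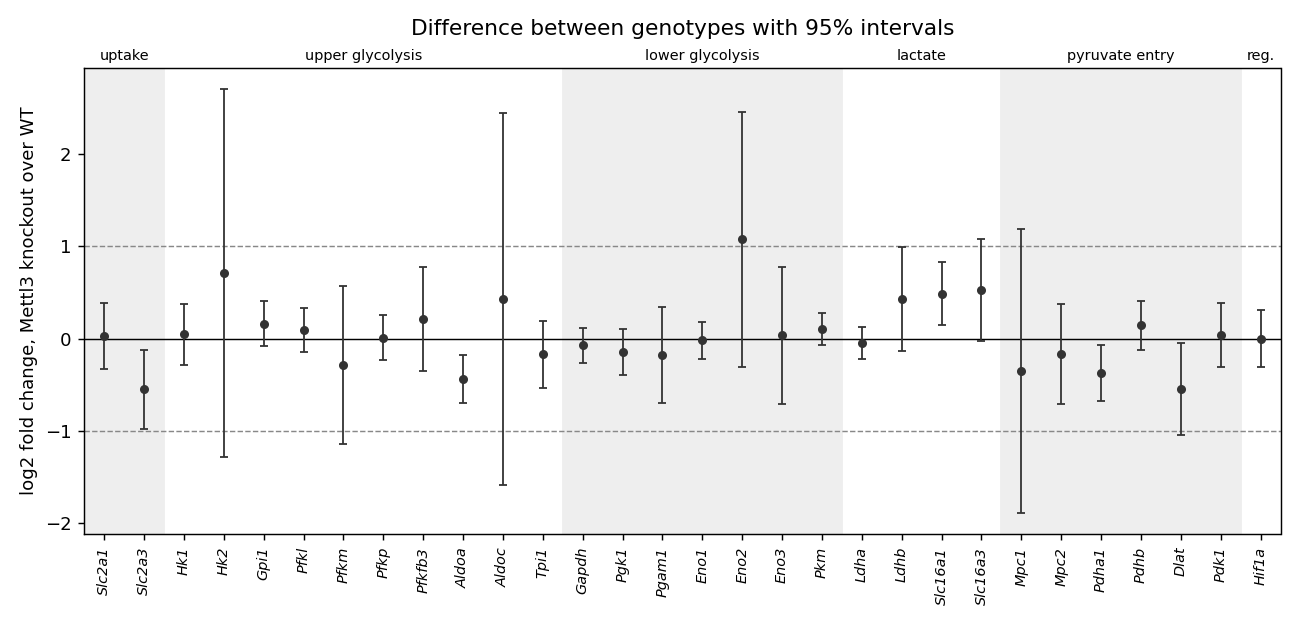
Log2 fold change of each of the 30 genes, knockout over WT, in pathway order; points are edgeR estimates from 2 libraries per genotype, bars 95% intervals, and dashed lines mark 2-fold. The intervals of Slc2a3, Aldoa, Slc16a1, Pdha1 and Dlat leave out 0 before adjustment, and those of Hk2, Aldoc, Eno2 and Mpc1 are the widest.

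**Figure D2:**
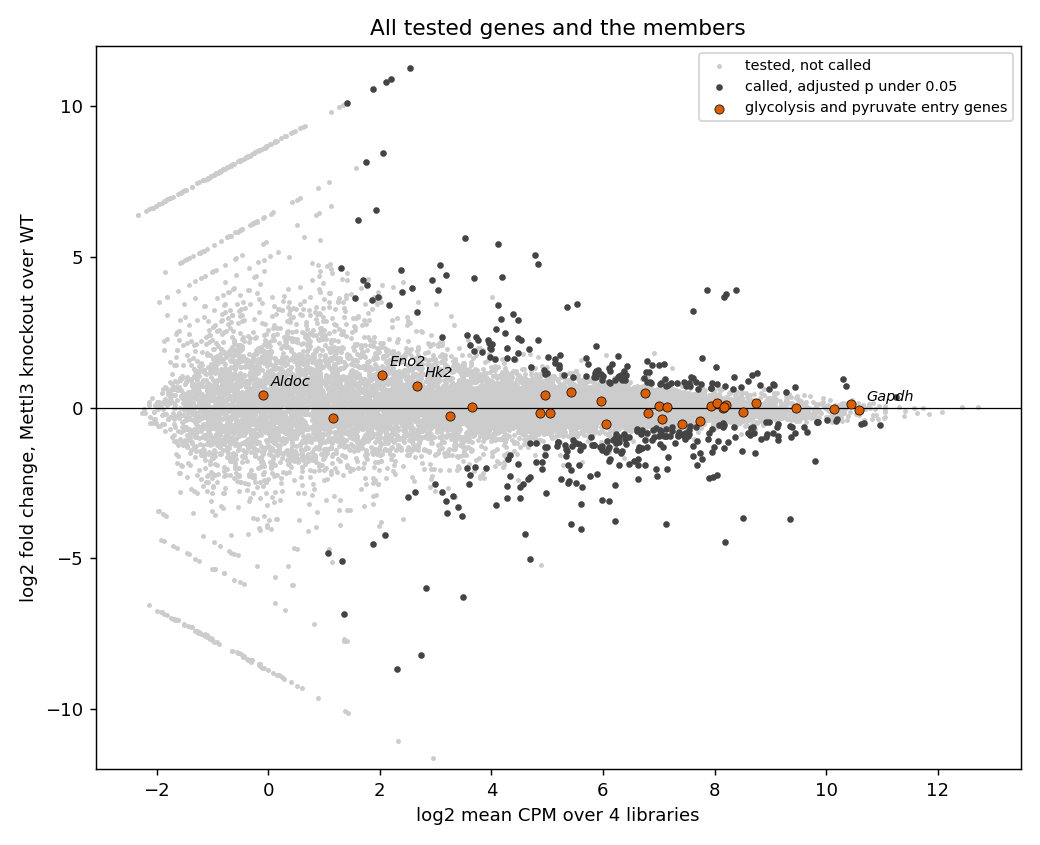
Log2 fold change of all tested genes against their log2 mean CPM over the 4 libraries, with the 30 members in orange and the 368 called genes in black. The members lie within the band of genes that were not called, from Aldoc near 1 CPM to Gapdh.

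Among themselves the members differed widely in level. Per kilobase of transcript, a scale on which different genes can be compared, Gapdh was highest, at 1179 in WT and 1120.5 in the knockout (CPM per kb, mean of 2 libraries), followed by Ldha at 689 in WT and 667 in the knockout, Pkm at 552 in WT and 593 in the knockout and Eno1 at 352 in WT and 347 in the knockout. The ranges of these 4 over the libraries did not overlap. Pgk1 came next at 209 in WT and 189 in the knockout, and then Pdhb, Aldoa and Gpi1, whose library ranges overlapped and of which Aldoa and Gpi1 changed places between the genotypes. Pfkl, Tpi1, Pfkp, Hk1 and Hif1a formed a middle group at 60.5 to 81.7 CPM per kb as genotype means, each overlapping its neighbour in that order. The next 12, from Pdha1, Slc2a3 and Slc2a1 down to Eno3, had genotype means of 8.49 to 53.1 CPM per kb. At the bottom were Pfkm, Mpc1, Eno2, Hk2 and Aldoc, at 0.254 to 3.78 CPM per kb in single libraries. The first 6 ranks were the same in both genotypes. With the length of all exons in place of the principal transcript the first 3 WT ranks were the same while Eno1 and Pgk1 changed places. Further down the order moved more. Mpc2 went from WT rank 17 to 25, Pfkp from 11 to 16 and Hif1a from 13 to 9, so the middle group depends on the length used.

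**Figure D3:**
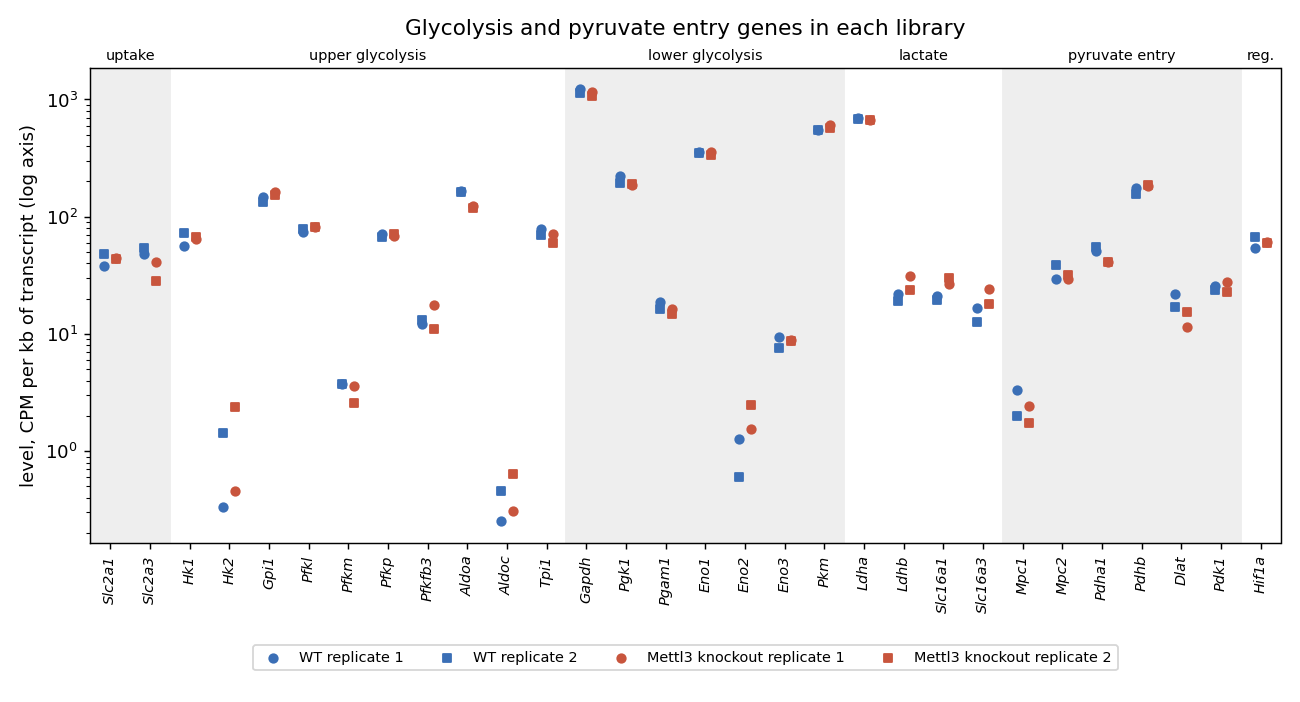
Level of each gene in each library, in CPM per kb of transcript on a log axis, in pathway order; blue is WT, red Mettl3 knockout, circles replicate 1 and squares replicate 2. In most genes the 4 points lie close together, and the spread within a genotype is widest for Hk2.

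Levels between these enzymes carry a limit from processed pseudogenes and overlapping genes, which the libraries cannot resolve because Smart-seq2 does not mark strand and some sequences recur in the genome. Of all 50-base stretches in the Gapdh transcript, 82.5% also occur in another annotated gene. The share was 72.2% for Eno1, 68.0% for Pgk1, 44.2% for Mpc1, 41.5% for Pgam1 and 34.4% for Pkm. It was 0 for Slc2a3, Hk1, Hk2, Pfkm, Aldoc, Eno3, Slc16a1, Slc16a3, Mpc2, Dlat and Pdk1. How the counting treated reads that match more than 1 gene is not given, so the levels of the genes with shared sequence are uncertain. Their comparison between genotypes uses the same counting in all 4 libraries, but whether reads of the sharing genes enter it was not tested. For Gpi1 25.3% of the stretches were shared. The genes sharing them held 615497 reads in all, beside 44777 for Gpi1 itself.

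Glucose enters T cells through GLUT1 and GLUT3. Slc2a1, which encodes GLUT1, the transporter that activation brings to the surface, was at 124 and 158 CPM in WT and 145 and 142 CPM in the knockout. The knockout libraries lay between the WT libraries, and the log2 fold change was 0.03 (95% interval -0.33 to 0.39). Slc2a3, which encodes the high-affinity transporter GLUT3, was at 192 and 212 CPM in WT and 163 and 113 CPM in the knockout. Both knockout libraries lay below both WT libraries, with a knockout-over-WT log2 fold change of -0.55 (95% interval -0.98 to -0.12; edgeR adjusted p = 0.155), short of a call. Without knockout replicate 2, the lowest library, the value was -0.31. As a share of the pair per kb of transcript, Slc2a1 made up 43.9% and 47.4% in WT and 51.9% and 60.5% in the knockout. The genotypes did not overlap, but with 2 libraries against 2 the exact permutation test over libraries (two-sided) cannot give a p below 0.333, its value here. Which of the 2 is the larger in WT depends on the length used, while in the knockout Slc2a1 was the larger with either. With the length of all exons Slc2a1 made up 57.1% and 60.6% in WT and 64.7% and 72.2% in the knockout.

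Hexokinase traps glucose as glucose 6-phosphate. Hk1, the housekeeping isoenzyme, was at 210.1 and 270.3 CPM in WT and 243 and 252 CPM in the knockout, with the knockout values between the WT values, and its share of the hexokinase pair per kb of transcript was 99.4% and 98.0% in WT and 99.3% and 96.6% in the knockout. Hk2, the inducible isoenzyme of growing cells, was at 1.85 and 7.92 CPM in WT and 2.53 and 13.1 CPM in the knockout. Replicate 2 of each genotype was higher than replicate 1, the genotypes overlapped, and the log2 fold change was 0.71 (95% interval -1.28 to 2.71). Gpi1, which encodes the isomerase of the next step, was at 429 and 384 CPM in WT and 466 and 444 CPM in the knockout with no overlap, a log2 change of 0.16 (95% interval -0.08 to 0.40).

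Phosphofructokinase commits sugar to glycolysis, and its subunits come from 3 genes. Pfkl, the liver-type subunit, was at 278 and 293 CPM in WT and 306 and 304 CPM in the knockout, and Pfkp, the platelet-type subunit, at 296 and 279 CPM in WT and 284 and 295 CPM in the knockout. Their log2 fold changes were 0.10 (95% interval -0.14 to 0.33) and 0.01 (95% interval -0.23 to 0.25). The share of Pfkl in the family per kb of transcript was 49.8% and 52.5% in WT and 53.2% and 52.5% in the knockout. Pfkm, the muscle-type subunit, was at 7.22 to 10.6 CPM over the 4 libraries and made up at most 2.52%. In Pfkp, 17.1% of 50-base stretches lie in the neighbouring gene Pitrm1, whose reads cannot be told from its own there. Pfkfb3 encodes the enzyme that makes fructose 2,6-bisphosphate, an activator of phosphofructokinase. It was at 55.8 and 60.5 CPM in WT and 82.6 and 51.6 CPM in the knockout, so the knockout libraries lay on either side of the WT libraries. The log2 fold change was 0.21 (95% interval -0.35 to 0.77). Its sign turned when knockout replicate 1 was left out, at -0.17, and it was 0.50 when knockout replicate 2 was left out.

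Aldolase cleaves fructose 1,6-bisphosphate into triose phosphates. Aldoa (ENSMUSG00000030695.16; GRCm38 chromosome 7, 126795234 to 126800751, minus strand), the isoenzyme of most tissues, was at 248 and 242 CPM in WT and 184 and 177 CPM in the knockout. The libraries of a genotype lay close together and the genotypes apart, at 245 ± 4.16 and 181 ± 4.78 CPM (SD, n = 2). It had a knockout-over-WT log2 fold change of -0.44 (95% interval -0.70 to -0.18; edgeR adjusted p = 0.0875), a level 1.36-fold lower in the knockout. That was the lowest adjusted p of the members, and it did not pass. DESeq2 gave an adjusted p of 0.00521. Over the other alternatives, in edgeR or limma voom, the log2 fold change was -0.47 to -0.39 and the adjusted p 0.0565 to 0.362. Of its 50-base stretches 13.9% recur in other genes, and a second gene ID of the same name held 22 reads in all. Aldoc, the brain isoenzyme, was at 0.569 to 1.44 CPM over the libraries, too low for a comparison. Tpi1, which encodes triose phosphate isomerase, was at 125 and 111 CPM in WT and 115 and 95.5 CPM in the knockout, overlapping, with a log2 change of -0.17 (95% interval -0.53 to 0.20).

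The steps from triose phosphate to pyruvate yield the ATP of glycolysis, and no gene of these steps passed the test. Gapdh, the dehydrogenase that opens these steps, was at 1648 and 1525 CPM in WT and 1574 and 1442 CPM in the knockout, with a log2 change of -0.07 (95% interval -0.27 to 0.12). Pgk1, which encodes phosphoglycerate kinase, was at 406 and 356 CPM in WT and 343 and 345 CPM in the knockout, and its log2 fold change was -0.15 (95% interval -0.40 to 0.10). Both Pgk1 knockout values lay below the WT values, by less than the gap between the WT libraries. Pgam1, the mutase of the next step, was at 26.1 to 33.0 CPM over the libraries. Eno1, the enolase of most tissues, was at 724 and 703 CPM in WT and 723 and 684 CPM in the knockout, and its log2 fold change was -0.02 (95% interval -0.22 to 0.18). Its sign turned under total-count scaling, at 0.03. Its share of the enolase family per kb was 97.1% and 97.7% in WT and 97.2% and 96.8% in the knockout. Eno3, the muscle enolase, was at 11.1 to 13.7 CPM over the libraries, the knockout libraries between the WT libraries. Eno2, the neuronal enolase, was at 3.56 and 1.67 CPM in WT and 4.31 and 6.98 CPM in the knockout. It did not overlap, and at a knockout-over-WT log2 fold change of 1.08 (95% interval -0.30 to 2.46; edgeR adjusted p = 0.362) it had the largest log2 fold change of the members and one of the widest intervals. With 1 library left out its log2 fold change was 0.66 to 1.74. Pkm, which encodes pyruvate kinase M and gives the M1 and M2 forms by splicing that gene counts do not resolve, was at 1342 and 1341 CPM in WT and 1485 and 1398 CPM in the knockout, with a log2 change of 0.10 (95% interval -0.07 to 0.28).

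Lactate dehydrogenase RNA was almost wholly of the A type. Ldha, whose subunit favours making lactate, was at 1168 and 1141 CPM in WT and 1126 and 1112 CPM in the knockout, with a log2 change of -0.05 (95% interval -0.22 to 0.13), or 0.01 under total-count scaling. Ldhb, whose subunit favours making pyruvate, was at 28.6 and 24.7 CPM in WT and 40.6 and 31.1 CPM in the knockout, a log2 change of 0.43 (95% interval -0.13 to 0.99). The share of Ldhb in the pair per kb of transcript was 3.05% and 2.71% in WT and 4.43% and 3.48% in the knockout. The genotypes did not overlap in that share, and the exact permutation test over libraries (two-sided) gave p = 0.333, the smallest it can give here. Of the Ldhb 50-base stretches 27.0% recur in 1 other gene.

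Monocarboxylate transporters move lactate and pyruvate with a proton across the plasma membrane. Slc16a1 (ENSMUSG00000032902.1; GRCm38 chromosome 3, 104638668 to 104658462, plus strand), which encodes MCT1, was at 93.2 and 86.4 CPM in WT and 118 and 134 CPM in the knockout. Both knockout libraries lay above both WT libraries, at 126 ± 11.3 against 89.8 ± 4.81 CPM (SD, n = 2), a knockout-over-WT log2 fold change of 0.49 (95% interval 0.15 to 0.83; edgeR adjusted p = 0.125). This did not pass, while DESeq2 gave an adjusted p of 0.0336. Slc16a3, which encodes MCT4, the exporter of highly glycolytic cells, was at 39.7 and 30.3 CPM in WT and 57.9 and 43.3 CPM in the knockout, also without overlap, a knockout-over-WT log2 fold change of 0.53 (95% interval -0.03 to 1.08; edgeR adjusted p = 0.272). Of the pair per kb of transcript Slc16a1 made up 55.8% and 60.6% in WT and 52.3% and 62.5% in the knockout. With the length of all exons it made up 73.8% and 77.4% in WT and 71.0% and 78.8% in the knockout, so how evenly the pair divides depends on the length used. Emb, which encodes a chaperone that brings such transporters to the membrane, was at 22.2 and 17.8 CPM in WT and 25.6 and 34.5 CPM in the knockout (log2 fold change 0.58, edgeR adjusted p = 0.287). Bsg, which encodes another such chaperone, was at 250 and 251 CPM in WT and 241 and 203 CPM in the knockout. Its knockout libraries lay below both WT libraries (log2 fold change -0.18, edgeR adjusted p = 0.490).

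**Figure D4:**
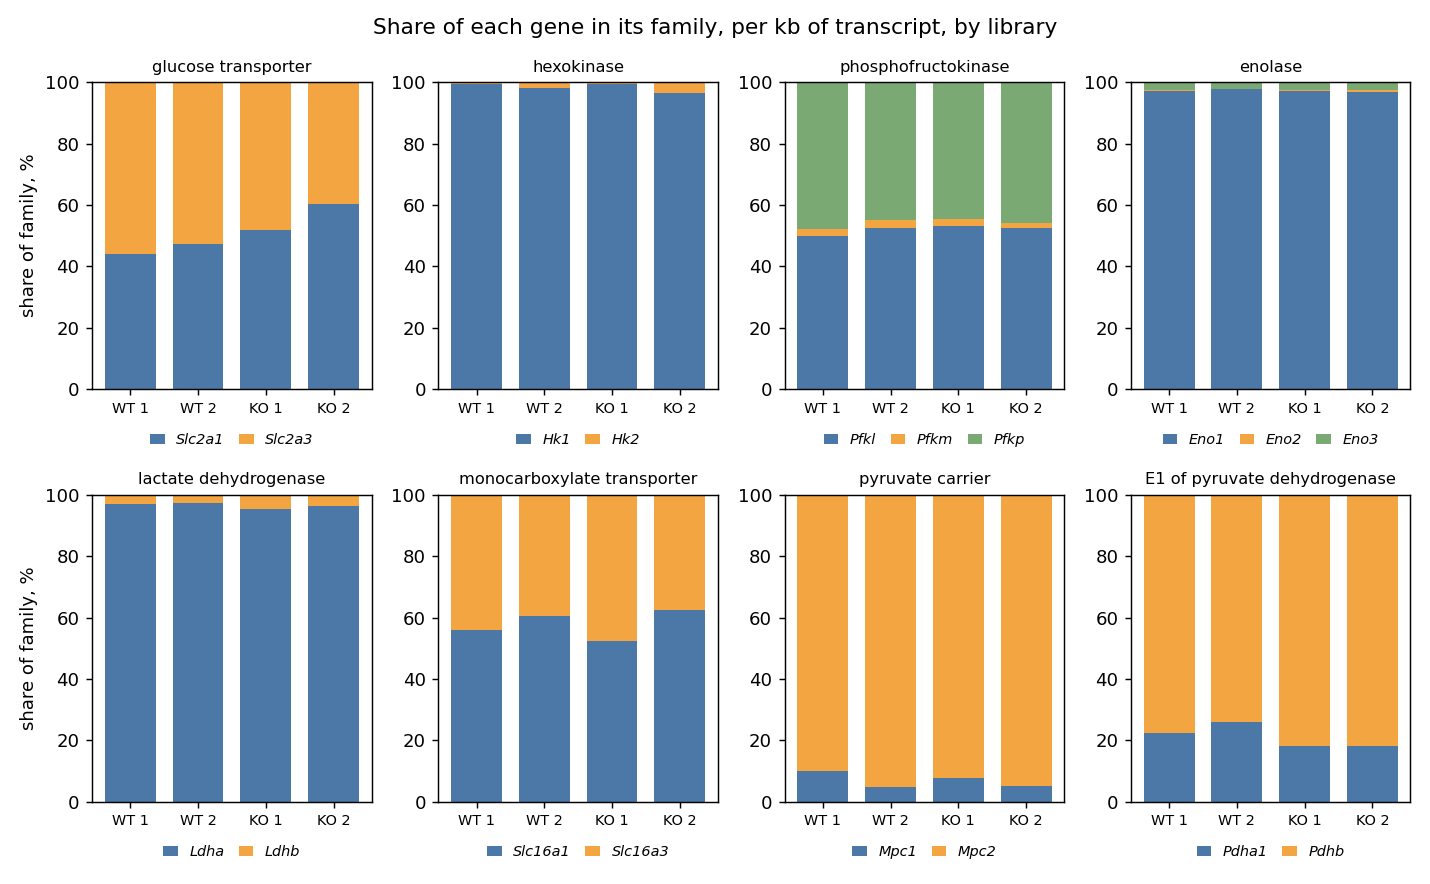
Share of each gene in its family in each library, in percent of the family's summed CPM per kb of transcript, for 8 families (KO, Mettl3 knockout). Each stacked bar is a single library and lengths are those of principal transcripts. Hk1, Eno1 and Ldha hold over 95% of their families in each library, while the glucose transporters, Pfkl with Pfkp, and the monocarboxylate transporters divide theirs.

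In 5 of the 9 families at least 1 share had no overlap between the genotypes. These were Slc2a1 with Slc2a3, Pfkm, Eno2, Ldha with Ldhb, and Pdha1 with Pdhb, the shares of a pair being mirror images. No background rate was computed for shares within families. The 50.3% of all tested genes without overlap counts single genes by their levels. Pyruvate enters mitochondria through a carrier of 2 subunits, MPC1 and MPC2. Mpc2 was at 30.4 and 40.004 CPM in WT and 30.003 and 32.6 CPM in the knockout, and Mpc1 at 1.65 to 3.09 CPM over the libraries. Both overlapped between the genotypes. Mpc2 made up 90.01% or more of the pair in each library, or 73.6% or more with the length of all exons, though the subunits act together, and 44.2% of the 50-base stretches of Mpc1 recur elsewhere.

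The pyruvate dehydrogenase complex is built of several subunits, and none of its genes passed the test. Pdha1, which encodes the E1α subunit that kinases switch off, was at 145 and 158 CPM in WT and 116 and 117 CPM in the knockout. Both knockout libraries lay below both WT libraries, and the nearly equal knockout values gave 117 ± 0.197 against 151 ± 9.09 CPM (SD, n = 2), a knockout-over-WT log2 fold change of -0.38 (95% interval -0.68 to -0.07; edgeR adjusted p = 0.165). Dlat, which encodes the E2 core, was at 88.9 and 68.9 CPM in WT and 46.7 and 61.7 CPM in the knockout, also without overlap, a knockout-over-WT log2 fold change of -0.55 (95% interval -1.04 to -0.05; edgeR adjusted p = 0.203). Pdhb, which encodes the E1β partner of E1α, was at 267 and 237 CPM in WT and 277 and 280.3 CPM in the knockout, without overlap in the other direction, with a log2 change of 0.14 (95% interval -0.12 to 0.41). The share of Pdha1 in the summed Pdha1 and Pdhb level per kb was 22.4% and 26.2% in WT and 18.3% and 18.1% in the knockout. Dld, which encodes the E3 enzyme, was at 176 and 192 CPM in WT and 158 and 151 CPM in the knockout (log2 fold change -0.25, edgeR adjusted p = 0.305). Pdk1, which encodes a kinase that switches E1α off and is a known HIF-1 target, was at 132 and 122 CPM in WT and 144 and 118 CPM in the knockout, overlapping, a log2 change of 0.04 (95% interval -0.31 to 0.39). Of the Pdha1 50-base stretches 16.5% lie in the overlapping gene Map3k15, and of the Pdhb stretches 30.3% in a single other gene.

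Hif1a encodes the oxygen-regulated subunit of HIF-1, which is controlled mainly through the stability of the protein and activates many glycolytic genes. Hif1a RNA was at 254 and 319 CPM in WT and 289 and 283 CPM in the knockout. The knockout libraries lay between the WT libraries, and the log2 fold change was -0.000216 with a 95% interval of -0.31 to 0.31 and a sign that differed between scalings. HIF-1 binds the core motif ACGTG or GCGTG, read as CACGT or CACGC on the opposite strand. In RefSeq promoters of GRCm38.p6, taken as the 250 bases before a start, the motif on either strand was in 33 of 43 windows of the members (76.7%), in 54.8% of the windows of tested genes and in 38.6% of all windows. Of the 30 members 29 had a promoter entry, and 25 of these (86.2%) held a match in at least 1 window, beside 60.7% of tested genes and 41.5% of all genes with an entry. The 29 members had 43 windows, and the 9862 tested genes with an entry had 12602. Neither the number of windows a gene nor the base composition was matched, so these shares do not measure an excess of HIF-1 sites. Overlapping windows of 1 gene share sequence, the forward and reverse forms overlap where the letters read CACGTG, and a match of 5 letters is a description, not a binding site. The members with an entry and no match were Dlat, Eno2, Gpi1 and Tpi1. The windows that follow, 1 match a gene, come from an uptake gene, phosphoglycerate kinase, the dominant lactate dehydrogenase, the exporter MCT4 and the pyruvate dehydrogenase kinase. They are shown because these genes are textbook HIF-1 targets whose levels are given above. Capitals mark the motif on either strand, and each sequence is written 5′ to 3′ on the strand of the gene.
Slc2a1, chr4:119108699-119108723, plus strand: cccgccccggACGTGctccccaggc
Pgk1, chrX:106186940-106186964, plus strand: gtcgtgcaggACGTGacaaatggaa
Ldha, chr7:46845746-46845770, plus strand: gcccagcctaCACGTgggttcccgc
Slc16a3, chr11:120949030-120949054, plus strand: ggcagcggtgACGTGcgcgggggac
Pdk1, chr2:71873136-71873160, plus strand: gcctacatggGCGTGtctttaacca
Among the genes shown, the log2 fold changes of Slc2a1, Pgk1, Ldha and Pdk1 had 95% intervals within 1.5-fold either way, and that of Slc16a3 reached beyond 2-fold. The matches lie 36, 150, 48, 27 and 78 bases before the start, in the order shown.

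METTL3 marks adenosine mainly within the sequence GGACT and close variants. In the principal transcripts of the 30 members, GGACT occurred in 28, beside 10753 of the 11701 tested genes with such a transcript. The median was 1.14 per kb in the members and 1.05 per kb over those tested genes. The members without GGACT were Aldoa and Ldhb. Pkm held 7 (2.88 per kb), Hk2 10 (1.81 per kb), Slc16a1 5 (1.13 per kb) and Slc2a3 6 (1.52 per kb). The highest density among the members was 3.13 per kb, in Mpc1. Whether any of them carries the mark was not measured here.

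Of 67 other genes of these pathways, 54 passed the filter, and 1 was called, beside 2.59% of all tested genes. It was Slc2a8, which encodes the intracellular glucose transporter GLUT8, at 42.2 and 48.4 CPM in WT and 19.0 and 17.7 CPM in the knockout. It fell by 1.30 on the log2 scale, or 2.46-fold (edgeR adjusted p = 0.0351). The call was lost with any 1 library left out, where the log2 fold change was -1.41 to -1.20. It was also lost with the replicate number as a block (edgeR adjusted p = 0.125). DESeq2 (adjusted p = 6.24e-05), limma voom (0.0412) and edgeR with genes kept at 5 CPM in 2 libraries (0.0151) called Slc2a8 as well. In its list of 23 genes of uptake and glycolysis, 14 were tested and 7 had no read in any library, among them Slc2a4, which encodes the insulin-responsive transporter. Adpgk, whose enzyme phosphorylates glucose with ADP, was at 92.7 and 92.1 CPM in WT and 128 and 127 CPM in the knockout, and Slc2a9, a urate transporter gene, at 11.1 and 7.84 CPM in WT and 17.6 and 21.4 CPM in the knockout. Neither passed, at edgeR adjusted p of 0.115 and 0.142, while DESeq2 gave Adpgk 0.0215. Slc2a6 was at 0.0711 to 5.86 CPM over the libraries, with a knockout-over-WT log2 fold change of 1.91 (95% interval -0.21 to 4.02; edgeR adjusted p = 0.292). That value was 0.86 to 5.89 with 1 library left out and 3.33 in limma voom.

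Of 16 other lactate and pyruvate genes 13 were tested, and 0 were called higher or lower by edgeR and 0 by DESeq2. An unadjusted p under 0.05 was reached by 1 (7.69%), beside 20.2% of all tested genes. That was Ldhd, a D-lactate dehydrogenase gene, at 13.4 and 14.2 CPM in WT and 6.57 and 6.62 CPM in the knockout (log2 fold change -1.07, edgeR adjusted p = 0.150). Slc16a6, a monocarboxylate transporter family gene, was at 94.3 and 113 CPM in WT and 70.3 and 86.3 CPM in the knockout (log2 fold change -0.40, edgeR adjusted p = 0.254). Pdk4, a kinase of fasting tissues, and Ldhc, the testis form, had no read in any library. The 7 genes of the pentose phosphate pathway, which branches off glucose 6-phosphate to make NADPH and ribose, were all tested, and 0 were called by edgeR or DESeq2 or had an unadjusted p under 0.05. All 7 log2 fold changes were negative, from -0.34 for Pgls to -0.03 for Tkt, apart from Tkt under total-count scaling, G6pdx, Rpia and Tkt without WT replicate 1, and Rpe without knockout replicate 2. The genes of this list with the smallest p were Pgls, Taldo1, G6pdx and Rpe, at edgeR adjusted p of 0.340, 0.577, 0.611 and 0.816.

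Among 21 regulators and targets of the hypoxia and MYC pathways 20 were tested and 0 were called by edgeR, beside 2.59% of all tested genes. At an unadjusted p under 0.05 there were 5 (25%), beside 20.2% of all tested genes, so that count is near the background. Ddit4, a stress-induced inhibitor of mTORC1 and a HIF-1 target, was at 19.9 and 28.1 CPM in WT and 51.3 and 52.5 CPM in the knockout, a knockout-over-WT log2 fold change of 1.12 (95% interval 0.58 to 1.66; edgeR adjusted p = 0.0534). Ankrd37, another HIF-1 target, was at 7.26 and 9.63 CPM in WT and 24.5 and 16.0 CPM in the knockout (log2 fold change 1.27, edgeR adjusted p = 0.117). Both were higher in each knockout library than in either WT library. Mycn, a MYC paralog, was at 17.8 and 15.9 CPM in WT and 5.75 and 6.02 CPM in the knockout (log2 fold change -1.52, edgeR adjusted p = 0.0680). Epas1, which encodes HIF-2α, was at 15.5 and 14.6 CPM in WT and 8.04 and 6.94 CPM in the knockout (log2 fold change -1.005, edgeR adjusted p = 0.155). Both were lower in each knockout library. The fifth gene with an unadjusted p under 0.05 was Egln3, a HIF-1 target that encodes a prolyl hydroxylase acting on HIF-1α, at 1.03 and 1.03 CPM in WT and 0.0389 and 0.160 CPM in the knockout (log2 fold change -3.33, edgeR adjusted p = 0.189). Bnip3 and P4ha1, also HIF-1 targets, had log2 fold changes of -0.05 and 0.07. DESeq2 called Ddit4, Ankrd37 and Mycn, with adjusted p of 0.00199, 0.0426 and 0.00667, beside 9.4% of all tested genes. With genes kept at 5 CPM in 2 libraries edgeR called Ddit4 (0.0241) and Mycn (0.0388), beside 727 of all 9833 genes tested there. Myc itself was at 535 and 520.5 CPM in WT and 496 and 394 CPM in the knockout, with a log2 change of -0.25 (95% interval -0.54 to 0.04).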

How the data were processed

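RNA of sorted thymic iNKT cells was made into libraries by Smart-seq2, which does not mark strand, per the labels' protocols. The authors deposited raw read counts per gene, 1 column per library, with GENCODE-style gene IDs. The submitters' processing notes name DESeq2 1.18.1, HTSeq 0.6.1, STAR 2.6.0a, FastQC 0.11.5 and the mm10 build, without settings. Of 53715 IDs, 53620 matched the GENCODE M21 annotation without the version and 51464 with it. Names and positions come from that annotation.

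Counts were tested in R 4.3.3 with edgeR 4.0.16 (low-count filter by expression, TMM scaling, robust quasi-likelihood fit on 2 residual degrees of freedom, two-sided, Benjamini-Hochberg adjustment over 14185 genes, called under 0.05). Intervals come from that fit. DESeq2 1.42.0 and limma 3.58.1 (voom) were alternatives, beside other scalings, filters, a replicate block and each library left out. Scripts were tested on simulated data. The level of 3 reads corresponds to 0.107 to 0.120 CPM per library. Levels per kb use the length of the principal transcript, or the median length where a gene has several. The 50-base stretches and GGACT counts use the longest of them. The stretches were compared with all annotated transcripts on both strands.

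The 30 members and all gene and marker lists were chosen with earlier results of these data known. Named beside the members were called genes and up to 4 genes per list with the smallest p. Myc, Bnip3, P4ha1, Egln3, Bsg, Tkt, Rpia and the genes without reads were named after their values were seen.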

Additional observations from a re-analysis of the deposited data

How the results depend on the processing

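Across all genes the 368 edgeR calls became 1333 with DESeq2, 727 with genes kept at 5 CPM in 2 libraries and 41 to 172 with 1 library left out, and the cause was not tested. With the replicate number as a block there were 33. Whether the replicate numbers pair the libraries is not given in the labels. Same-numbered libraries had a correlation of deviations from their genotype means of -0.0299 over the tested genes. With 2 libraries per genotype that is a single value, which cannot decide whether they were paired. The block result therefore describes only a shared number. Of the 30 members 0 were called under the block and under each other alternative, apart from 2 with DESeq2. Of 327 values of single members under an alternative, 301 were on the same side, 24 in 13 members had the other sign and 2 became calls.

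Under total-count scaling the log2 fold change was 0.0327 for Eno1, 0.00786 for Ldha and 0.0550 for Hif1a, and the median of all genes was 0.07. For Hif1a it was 0.00486 with DESeq2 size factors, 0.00354 with DESeq2, 0.0134 with limma voom, 0.00653 with the 5 CPM filter and 0.00743 with the block. Leaving out 1 library gave both signs for 12 members and for 4 of the 7 pentose phosphate genes. The ranges were -0.15 to 0.21 for Slc2a1, -0.14 to 0.23 for Hk1, -0.91 to 2.06 for Hk2 and -0.0357 to 0.0441 for Pfkp. They were -0.17 to 0.50 for Pfkfb3, -0.18 to 0.90 for Aldoc, -0.0614 to 0.0139 for Eno1 and -0.10 to 0.19 for Eno3. They were -0.65 to 0.0668 for Mpc1, -0.37 to 0.0351 for Mpc2, -0.11 to 0.17 for Pdk1 and -0.17 to 0.17 for Hif1a, and -0.37 to 0.0222 for G6pdx, -0.31 to 0.10 for Rpe, -0.28 to 0.19 for Rpia and -0.08 to 0.00774 for Tkt. With 1 library left out, the spread comes from the complete genotype alone and is taken to hold for the single library too. With exon-union lengths, an alternative chosen after seeing the data, shares themselves shifted with the lengths. The difference between genotypes moved by more than the spread between libraries for Pfkm, where it was -0.524 percentage points with principal transcripts and -0.997 with exon unions, and Pfkl lost its overlap, at 62.2% and 64.7% in WT and 65.4% and 65.3% in the knockout. At this depth 5 of the 6 members below 14 CPM in every library had intervals beyond 2-fold, Eno3 being the exception.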
